A study of Homo sapiens with 4 samples.

Results

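The mitotic kinesins examined here were 10 microtubule motors of the spindle and midzone: KIFC1, KIF2C, KIF18A, KIF18B, KIF4A, KIF22, KIF20A, KIF20B, KIF23 and KIF14. They were taken by symbol from a table of 18134 genes, leaving aside KIF11 and KIF15, and all 10 were among the 14048 genes with enough counts to be tested. The table came from poly(A) RNA sequencing of PC9, a human lung adenocarcinoma line with mutant EGFR, and compared 2 libraries of cells with a control hairpin (shNC) with 2 libraries of cells with a hairpin against TPX2 (shTPX2). Both kinds of cell were stable lines made with lentiviral pLKO.1 vectors and established by antibiotic selection. No clone was named, and the study describes shTPX2 as a partial depletion. Nothing in the labels says that the 2 libraries of a group came from separate cultures, so the p-values below measure only the spread between these libraries. The comparison asked how expression in PC9 differs once TPX2 is reduced.

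Kinesins are ATP-driven motors that walk along microtubules or take their ends apart. In mitosis they slide and cluster spindle microtubules, set microtubule length, carry and push chromosomes, and build the central spindle that guides cytokinesis. TPX2 is a spindle assembly factor that is held inactive by importins, released by RAN bound to GTP near chromosomes, and known for activating AURKA and binding KIF11. Transcripts of most of these motors peak in G2 and mitosis, so in a bulk library fewer mitotic cells and less kinesin RNA per cell cannot be told apart.

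Sequencing depth was even, with 20906441 to 21972583 expected counts per library, and the 10 kinesins held 349 to 2356.5 expected counts each per library. All 6 epithelial markers examined lay above 1 TPM, a transcript level scaled by length and by library, in every library, while none of the 3 lung adenocarcinoma markers NKX2-1, NAPSA and SFTPB did so. The summed level of 4 leukocyte markers was 7.49, 29.6, 8.47 and 15.5 TPM in shNC 1, shNC 2, shTPX2 1 and shTPX2 2, most of it CD14, with PTPRC at 0.28 to 0.69 TPM. Endothelial markers summed to 19.9 to 36.5 TPM and fibroblast markers to 5.90 to 12.4 TPM, with LUM at 0 in every library. The leukocyte sum was lowest in shNC 1 and highest in shNC 2, as was the summed level of the 10 kinesins, and its part in their levels was not tested.

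The targeted gene was read first. The target of the hairpin lies whole in 2 of 2 GENCODE v29 transcripts of TPX2 and in none of the kinesin transcripts, which share runs of at most 9 bases with it. It is shown, 5′ to 3′, because it ties the label to TPX2 and not to a kinesin.
shTPX2 target: cgtgaacttgatcccagaata
TPX2 measured 55.0 TPM in shNC 1, 112 TPM in shNC 2, 43.4 TPM in shTPX2 1 and 43.8 TPM in shTPX2 2. No shTPX2 value reached that of a control, and the shNC libraries differed 1.97-fold from each other in CPM (counts scaled by TMM-adjusted library size). The log2 fold change of TPX2 in shTPX2 against shNC was -0.81 (SE 0.32, 95% CI -1.57 to -0.05), with an unadjusted p of 0.0403 and a Benjamini-Hochberg adjusted p of 0.618 by the quasi-likelihood test of edgeR. Its size rested on the control libraries, at -1.22 without shNC 1 (edgeR adjusted p = 0.0795) and -0.25 without shNC 2 (adjusted p = 0.872).

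No mitotic kinesin passed a test between the shTPX2 and shNC libraries. All 10 were lowest in shNC 1, and the share of all genes in that position was not counted. All 10 were higher in shNC 2 than in shNC 1, as were 7063 of the 14048 tested genes. For 8 of the 10 both shTPX2 libraries lay between shNC 1 and shNC 2, with shNC 2 at the top. This order was present in 8.65% of all tested genes (17.2% with either control at the top). None of the 10 passed edgeR at an adjusted p under 0.05, nor did any gene of the table (0% in each direction), and the smallest adjusted p over all genes was 0.109. At an unadjusted p under 0.05 the count was again 0 of 10 kinesins against 8.03% of all genes (3.13% higher and 4.9% lower in shTPX2), and DESeq2 at an adjusted p under 0.05 called 0 of 10 against 0.79%. With limma voom, where a gene was called if its unadjusted p did not exceed 0.1 and its log2 fold change reached 0.3 either way, 0 of 10 kinesins were called against 14.2% of all genes. The log2 fold changes of the kinesins ran from -0.26 to 0.27 with a median of 0.09, where the median of all genes was -0.0085, and 7 of 10 were above 0 against 48.9% of all genes.

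**Figure D1:**
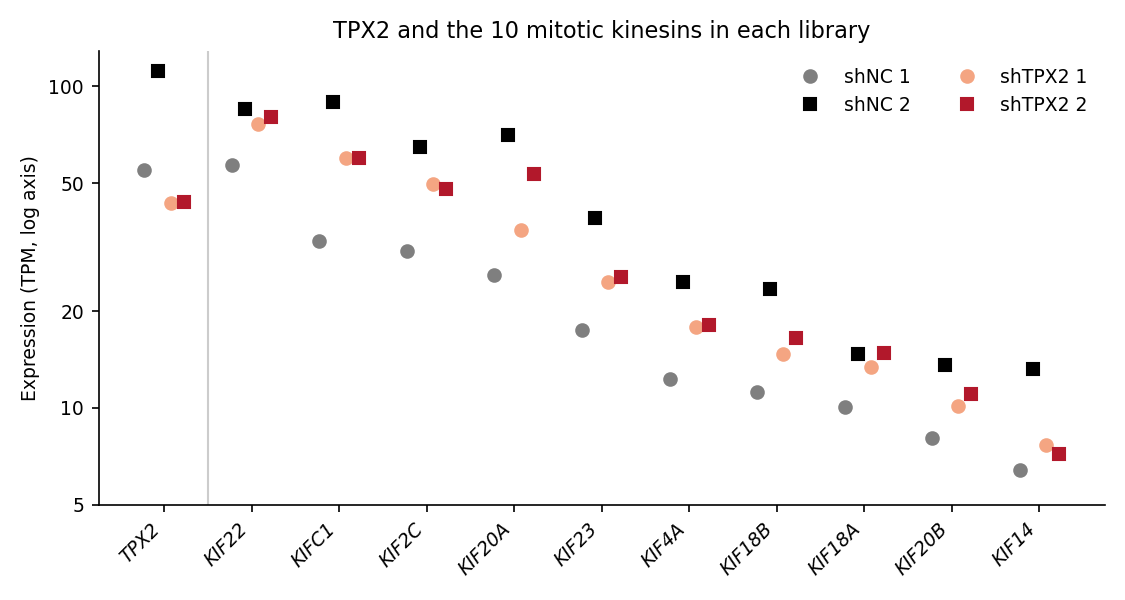
Expression of TPX2 and the 10 mitotic kinesins in TPM on a log axis, with 1 point per library and no averaging. For each kinesin the shNC 1 point is the lowest, and the shTPX2 points lie below the shNC 2 point for all but KIF18A, whose shTPX2 2 value of 14.87 is just above the 14.69 of shNC 2.

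The kinesins differed more between the 2 control libraries than between the groups. shNC 2 exceeded shNC 1 by at least 0.5 on the log2 CPM scale for 9 of 10 kinesins, all but KIF18A, against 14.3% of all tested genes, and for 0 of 10 the gap ran the other way, against 10.1%. The median difference between shNC 2 and shNC 1 was 1.02 on that scale for the kinesins, from 0.41 for KIF18A to 1.41 for KIF20A, and 0.0036 for all genes. Between the 2 shTPX2 libraries the median difference was 0.0023, and KIF20A was the single kinesin that differed there by at least 0.5, higher in shTPX2 2, where 8.07% of all genes were higher and 8.16% lower by that much. Summed over the 10 kinesins, expression was 212 TPM in shNC 1, 439 TPM in shNC 2, 310 TPM in shTPX2 1 and 335 TPM in shTPX2 2. Sums of both shTPX2 libraries thus lay inside the range of the controls.

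Since the kinesins shifted together between libraries, their promoters were searched for 2 elements that many genes of G2 and mitosis carry. The cell cycle genes homology region (CHR, TTTGAA or TTCAAA depending on strand) is a site of the MuvB complex with MYBL2 or FOXM1, and the CCAAT box (CCAAT or ATTGG) is a site of the factor NF-Y. In RefSeq windows of 250 bases before to 50 bases after the start site (GRCh38.p14), a CHR element was present for 7 of 10 kinesins against 15.2% of 35116 promoters and 9.86% of the 11297 promoters matched to tested genes. KIF22 held the variant TTCGAA, which 1.45% of all promoters held. A CCAAT box was found for 9 of 10 kinesins, all but KIF2C, against 34.6% of all promoters and 36.1% of those of tested genes. Both kinds together, counting the variant, occurred in 8 of 10 kinesin windows and in 6.38% of all windows, or 4.64% for tested genes. No CHR match overlapped a CCAAT match. Other forms of the CHR were not searched, and the absence of these letters from a window says nothing about binding elsewhere.

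Stretches from 100 bases before to 12 bases after the start site are shown for the motors with the widest gap between the shNC libraries (KIFC1 and KIF20A), those with the narrowest (KIF18A and KIF22), and a pair with both elements close together (KIF4A and KIF23). Each is given 5′ to 3′ on the strand of its gene, and capitals mark the CCAAT box, the CHR element or its variant on either strand. For KIF22 the upstream of 2 RefSeq windows was used, and the start site of the RefSeq window for KIFC1 lies inside the annotated gene, downstream of the gene start given below.
KIFC1 (chr6:33391723-33391834, plus strand): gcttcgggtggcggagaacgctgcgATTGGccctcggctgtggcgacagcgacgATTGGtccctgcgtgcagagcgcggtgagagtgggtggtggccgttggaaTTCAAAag
KIF20A (chr5:138179012-138179123, plus strand): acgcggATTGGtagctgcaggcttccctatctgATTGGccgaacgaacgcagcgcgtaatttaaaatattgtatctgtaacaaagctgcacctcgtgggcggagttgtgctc
KIF18A (chr11:28108145-28108256, minus strand): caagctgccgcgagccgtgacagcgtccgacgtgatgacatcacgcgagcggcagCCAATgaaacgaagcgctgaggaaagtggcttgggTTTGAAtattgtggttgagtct
KIF22 (chr16:29790651-29790762, plus strand): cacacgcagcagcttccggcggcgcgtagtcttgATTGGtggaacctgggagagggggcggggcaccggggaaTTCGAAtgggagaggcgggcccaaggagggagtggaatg
KIF4A (chrX:70290004-70290115, plus strand): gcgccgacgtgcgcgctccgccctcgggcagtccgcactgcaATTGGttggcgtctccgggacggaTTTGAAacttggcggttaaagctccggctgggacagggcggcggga
KIF23 (chr15:69414249-69414360, plus strand): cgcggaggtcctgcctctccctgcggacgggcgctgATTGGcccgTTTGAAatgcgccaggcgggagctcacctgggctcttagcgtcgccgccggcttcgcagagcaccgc
In KIF4A the CCAAT box began 58 bases and the CHR element 34 bases before the start site, and in KIF23 they began 64 and 55 bases before it. KIF18A had them at 45 and 10 bases, and KIF22 at 66 and, for the variant, 27 bases before the start. KIFC1 carried 2 CCAAT boxes, 75 and 46 bases upstream, and a CHR element starting at base 5 after the start, whereas KIF20A carried 2 CCAAT boxes and no CHR match. Of the motors shown for their control gap, KIFC1 and KIF18A had the canonical CHR letters, KIF22 the variant and KIF20A neither. A relation of these motifs to the control gap was not tested.

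**Figure D2:**
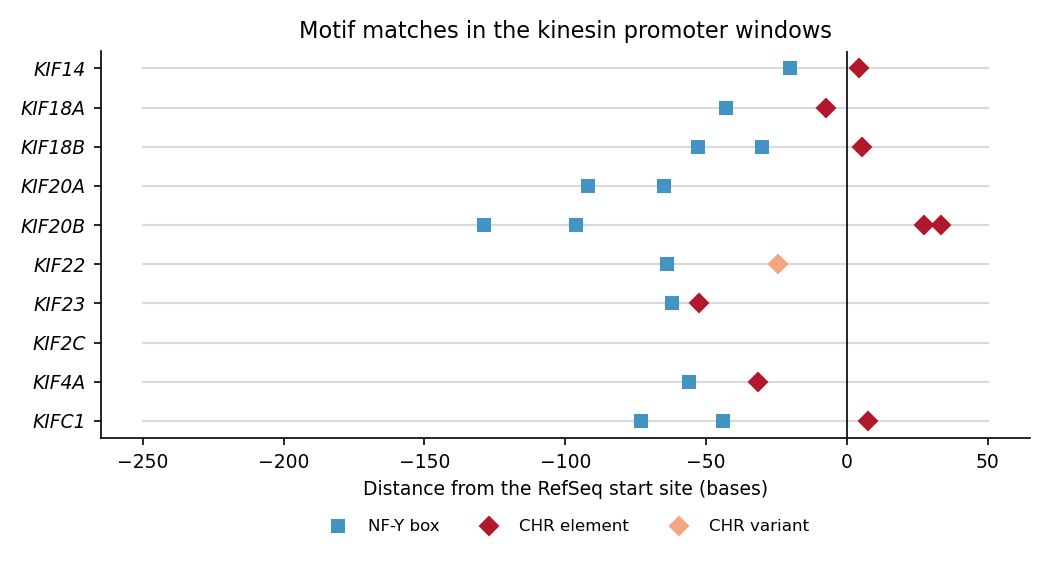
Distance of motif matches from the RefSeq start site in bases, 1 line per kinesin window, with squares for CCAAT boxes (NF-Y box), dark diamonds for CHR elements and a light diamond for the CHR variant. In 7 windows a CHR element and in 9 windows a CCAAT box is drawn, and the KIF2C window holds neither.

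The single motor of the set that walks toward microtubule minus ends is KIFC1 (chr6:33391461-33409896, plus strand), a kinesin-14 that cross-links spindle microtubules and clusters extra centrosomes. KIFC1 measured 33.1 TPM in shNC 1, 89.7 TPM in shNC 2, 59.7 TPM in shTPX2 1 and 60.0 TPM in shTPX2 2. Control values enclosed the shTPX2 values, which were almost equal to each other. Group means were 61.4 ± 40.0 TPM for shNC and 59.8 ± 0.177 TPM for shTPX2 (SD, n = 2 each). The log2 fold change of KIFC1 was 0.11 (SE 0.39, 95% CI -0.84 to 1.06).

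Microtubule ends are shortened or capped by KIF2C (chr1:44739837-44767767, plus strand), a kinesin-13 depolymerase of the centromere, and by the kinesin-8 motors KIF18A and KIF18B. KIF2C measured 30.7 and 64.7 TPM in shNC 1 and shNC 2, and 49.6 and 48.0 TPM in shTPX2 1 and shTPX2 2. Again the shTPX2 libraries sat inside the control range, and the log2 fold change was 0.16 (SE 0.33, 95% CI -0.63 to 0.95). KIF18A (chr11:28020619-28108156, minus strand) dampens the oscillation of chromosomes at the metaphase plate. Its values were 10.1 TPM in shNC 1, 14.7 TPM in shNC 2, 13.4 TPM in shTPX2 1 and 14.9 TPM in shTPX2 2. Groups overlapped in TPM, while on the TMM-scaled CPM scale they did not, at 16.0 and 21.4 CPM for shNC against 22.1 and 23.1 CPM for shTPX2. Such separation in either direction was present in 39.6% of all genes, 19.4% with shTPX2 above and 20.2% below, and the log2 fold change of KIF18A was 0.27 (SE 0.22, 95% CI -0.26 to 0.81). KIF18B (chr17:44924711-44947773, minus strand), which works with KIF2C on astral microtubules, measured 11.2, 23.5, 14.7 and 16.5 TPM in shNC 1, shNC 2, shTPX2 1 and shTPX2 2. The shTPX2 pair lay between the controls, and the log2 fold change of KIF18B was -0.0096 (SE 0.33, 95% CI -0.81 to 0.79).

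Chromosome arms are bound by the chromokinesins KIF4A and KIF22. KIF4A (chrX:70290104-70420886, plus strand), which also limits the length of midzone microtubules together with PRC1, measured 12.3 TPM in shNC 1, 24.6 TPM in shNC 2, 17.9 TPM in shTPX2 1 and 18.1 TPM in shTPX2 2. These shTPX2 values differed by less from each other than from either control, and the log2 fold change was 0.09 (SE 0.31, 95% CI -0.66 to 0.83). The near-identical intronless copy KIF4B was at 0.01 to 0.06 TPM in the 4 libraries, and how reads that fit both copies were assigned is not given in the sources used here. KIF22 (chr16:29790751-29805385, plus strand), known as the polar ejection motor Kid, had the highest level of the 10 when averaged over libraries, at 57.1 TPM in shNC 1, 85.1 TPM in shNC 2, 76.5 TPM in shTPX2 1 and 80.1 TPM in shTPX2 2. In TPM the shTPX2 libraries lay between the controls. In CPM they were just above both, at 84.7 and 86.2 CPM against 57.8 and 84.1 CPM, making KIF22 the other kinesin besides KIF18A without overlap on that scale. Its log2 fold change was 0.27 (SE 0.22, 95% CI -0.25 to 0.79), and its adjusted p of 0.785 was the smallest of the 10 by edgeR.

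Cytokinesis depends on KIF20A, KIF20B, KIF23 and KIF14. KIF20A (chr5:138179112-138187723, plus strand), or MKLP2, brings the chromosomal passenger complex with AURKB to the midzone. It measured 25.8 TPM in shNC 1, 70.6 TPM in shNC 2, 35.8 TPM in shTPX2 1 and 53.5 TPM in shTPX2 2. KIF20A thus varied within both groups, 2.68-fold between the shNC libraries and 1.45-fold between the shTPX2 libraries in CPM, and its log2 fold change of 0.05 had the widest interval of the 10 (SE 0.44, 95% CI -1.03 to 1.12). KIF20B (chr10:89701590-89774934, plus strand), also MPP1, is needed to complete abscission. Its levels were 8.04 and 13.6 TPM in shNC 1 and shNC 2, and 10.2 and 11.03 TPM in shTPX2 1 and shTPX2 2. The shTPX2 levels of KIF20B lay inside the control range, with a log2 fold change of 0.09 (SE 0.26, 95% CI -0.53 to 0.72).

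KIF23 (chr15:69414349-69448427, plus strand), or MKLP1, forms the centralspindlin complex with RACGAP1. Expression of KIF23 was 17.5 TPM in shNC 1, 39.1 TPM in shNC 2, 24.6 TPM in shTPX2 1 and 25.5 TPM in shTPX2 2. This order was that of most of the other motors, and the log2 fold change was -0.08 (SE 0.34, 95% CI -0.90 to 0.74). KIF14 (chr1:200551497-200620751, minus strand) recruits citron kinase to the midbody and binds PRC1. It had the lowest level, at 6.42 TPM in shNC 1, 13.2 TPM in shNC 2, 7.66 TPM in shTPX2 1 and 7.22 TPM in shTPX2 2. For KIF14 the shTPX2 values lay in the lower part of the control range, and its log2 fold change of -0.26 (SE 0.33, 95% CI -1.07 to 0.54) was the lowest of the 10. Across all 10 kinesins the adjusted p of edgeR ran from 0.785 to 0.996, so neither a rise nor a fall was detectable, and the intervals left room for changes of close to 1 log2 unit in several members.

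Which control library was used decided the direction for most kinesins. Without shNC 1 the log2 fold changes were below 0 for 8 of 10, all but KIF18A and KIF22. Their median was -0.36, against 7.88e-04 for all genes. Without shNC 2 all 10 were above 0, and the median was 0.58, against -0.0068 for all genes. With limma voom at the criteria given above, leaving out shNC 1 gave 5 kinesins called lower (KIF14, KIF18B, KIF20A, KIF23 and KIFC1) and 0 called higher, against 13.2% and 10.6% of all genes. Leaving out shNC 2 gave 9 called higher, all but KIF14, and 0 called lower, against 6.05% and 7.22% of all genes. In these fits the remaining shNC library was assumed to vary like the shTPX2 pair. By edgeR none of the 10 reached an adjusted p under 0.05 in either fit, where the smallest values were 0.226 without shNC 1 and 0.321 without shNC 2.

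**Figure D3:**
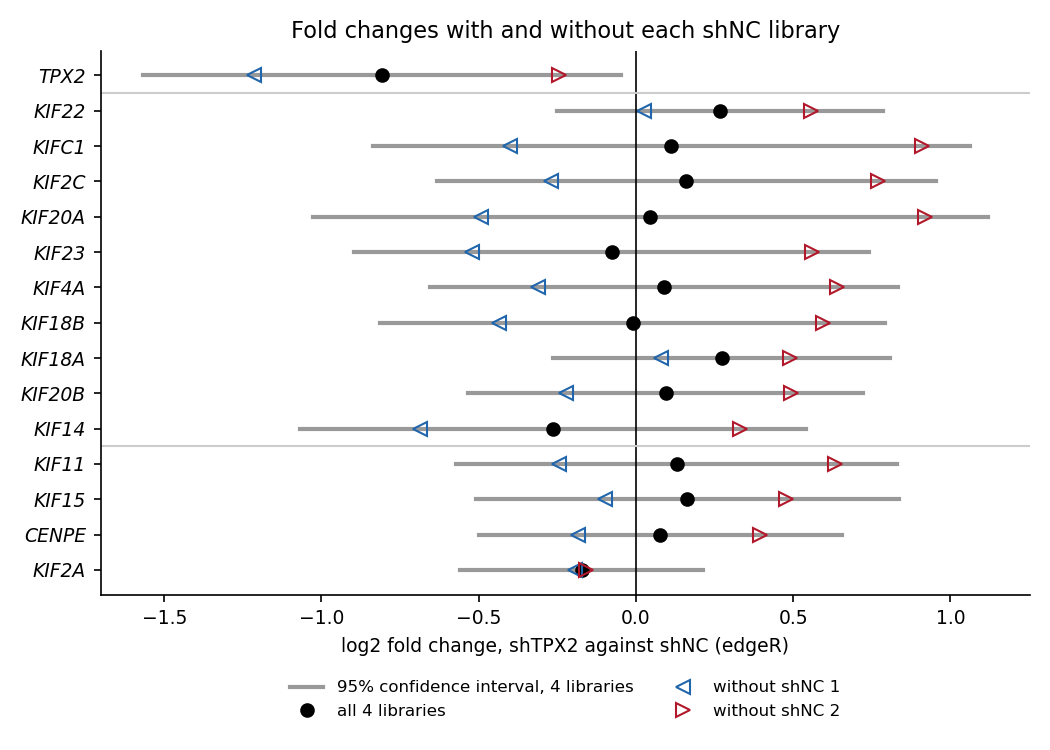
The log2 fold change of shTPX2 against shNC by edgeR (x axis) for TPX2, the 10 mitotic kinesins and 4 other spindle kinesins, with filled circles and 95% confidence intervals for all 4 libraries and open triangles for fits without shNC 1 (blue) or shNC 2 (red). Every kinesin interval crosses 0, and for 8 of the 10 the triangles fall on opposite sides of 0.

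Proportions among the kinesins were steadier than their levels. KIF4A made up 5.39% to 5.81% of the summed kinesin TPM and KIF2C 14.4% to 16.0% over the 4 libraries. KIF22 took 26.9% in shNC 1 and 19.4% in shNC 2, with 24.7% and 23.9% in shTPX2 1 and shTPX2 2, so its share was lowest where the sum was highest. KIFC1 showed the opposite order between the controls, with 15.6% in shNC 1 and 20.4% in shNC 2. The share of KIF14 was 3.03% and 3.02% in the shNC libraries and 2.47% and 2.16% in the shTPX2 libraries. KIF14 was thus less of the kinesin sum in both shTPX2 libraries than in either control. KIF18B was too, at 5.27% and 5.35% against 4.74% and 4.94%, as was KIF23, at 8.22% and 8.91% against 7.94% and 7.61%. The shares of the other kinesins overlapped between the groups. As log2 TPM minus the mean of the other 9 kinesins, KIF23 overlapped too. It stood at 0.05 and 0.22 in shNC and at 0.06 and 0.0048 in shTPX2, while KIF14 and KIF18B stayed apart. The shares were compared after the levels had been seen, and how often other genes separate on such a measure was not counted. In CPM, 39.6% of all genes had groups that did not overlap. With 2 libraries against 2 an exact two-sided permutation test cannot go below p = 0.333, the value that any separation of the groups gives.

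Set against the kinesins of the same library, TPX2 was uniform within each group over the 4 libraries analysed. TPX2 amounted to 25.9% and 25.5% of the summed kinesin TPM in shNC 1 and shNC 2, and to 14.0% and 13.1% in shTPX2 1 and shTPX2 2. The 2 control libraries, in which TPX2 itself differed about as much as the kinesins did, agreed closely on this measure. The authors' group means, taken over more libraries, put TPX2 at 34.1% of the kinesin sum in shNC and 14.8% in shTPX2. That shNC value lies above both shNC libraries analysed here. The close match is thus described for these 2 control libraries alone. On the log2 TPM scale TPX2 exceeded the mean of the 10 kinesins by 1.71 ± 0.0084 in shNC and by 0.83 ± 0.06 in shTPX2 (SD, n = 2 each). The difference of -0.88 corresponds to a ratio 1.84-fold higher in shNC, and the exact two-sided permutation p was 0.333, the smallest the design allows. This ratio was chosen after the values were seen. The mean of the kinesins on the same scale differed by 0.03 between the groups (exact permutation p = 1).

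**Figure D4:**
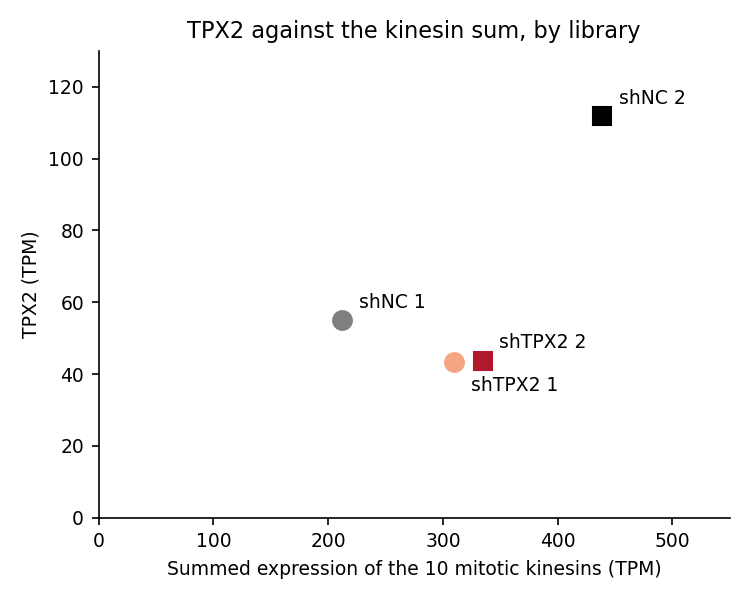
TPX2 expression in TPM (y axis) against the summed expression of the 10 mitotic kinesins in TPM (x axis), with 1 point per library and both axes starting at 0. The shNC points rise together from 212 and 55.0 to 439 and 112 TPM, while both shTPX2 points lie near 43 TPM of TPX2 at kinesin sums of 310 and 335 TPM.

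Spindle kinesins outside the set behaved alike in part. KIF11, the tetrameric motor that TPX2 binds, measured 14.3, 27.3, 20.7 and 20.8 TPM in shNC 1, shNC 2, shTPX2 1 and shTPX2 2, with a log2 fold change of 0.13 (SE 0.29). KIF15, a motor that can stand in for KIF11, measured 4.55, 7.21, 6.58 and 5.91 TPM, and CENPE, the kinetochore motor, 5.31, 8.22, 6.38 and 6.76 TPM. In all 3 the lowest value was that of shNC 1, as in the 10 mitotic kinesins. KIF2A, a depolymerase of spindle poles that is also used in interphase, differed from them, at 33.1 and 35.0 TPM in the shNC libraries and 28.8 and 26.6 TPM in the shTPX2 libraries. Its groups did not overlap, and edgeR gave a log2 fold change of -0.17 (SE 0.16, unadjusted p = 0.318, adjusted p = 0.812). KIF2B was not among the genes for which values were given.

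Kinesins and light chains of interphase transport did not share the library order. Of 27 tested, 13 were higher in shNC 2 than in shNC 1, beside 7063 of the 14048 tested genes. The median difference between these libraries was -0.06 on the log2 CPM scale. The median log2 fold change of the 27 was -0.17, with 9 above 0 and 18 below. KIF17, a motor of cilia and dendrites, was the single one called by limma voom, as lower in shTPX2, where 7.99% of all genes were called lower. It stood at 0.46 and 1.26 TPM in shNC and at 0.16 and 0.38 TPM in shTPX2, and the call was lost without shNC 2 (edgeR log2 fold change -0.66). The neuronal motor KIF5C, with the smallest edgeR p of this list (unadjusted 0.0505, adjusted 0.623), was at 0.84 TPM or less in every library.

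Partners of the mitotic kinesins followed the kinesins in most cases. Of 30 partners and regulators, 25 were higher in shNC 2 than in shNC 1, beside 7063 of the 14048 tested genes. The median difference was 0.87 log2 CPM. For 17 both shTPX2 libraries lay between the controls with shNC 2 highest, against 8.65% of all genes. PRC1, the midzone bundler to which KIF4A and KIF14 bind, measured 54.7, 110 (shNC 1, shNC 2), 78.6 and 75.2 TPM (shTPX2 1, shTPX2 2). RACGAP1, which binds KIF23, measured 37.1, 70.0, 44.1 and 39.0 TPM in the same order, and AURKB, which KIF20A carries, 39.0, 105, 63.2 and 64.8 TPM. All 3 were lowest in shNC 1 and highest in shNC 2 like their motors, with log2 fold changes of 0.05 (SE 0.32), -0.25 (SE 0.29) and -0.06 (SE 0.41). PLK1, the mitotic kinase that docks on KIF20A, measured 65.2, 106, 84.1 and 99.2 TPM, with a log2 fold change of 0.22 (SE 0.25). KPNB1, the importin beta that regulates several spindle factors, measured 165, 164, 172 and 179 TPM. Its log2 fold change was 0.22 (SE 0.17, edgeR adjusted p = 0.780). In CPM, 4 of the 30 partners (KPNB1, BIRC5, RAN and RCC1) had both shTPX2 libraries above both controls, against 19.4% of all genes. None had them below, against 20.2%.

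By limma voom 2 of the 30 partners were called, both higher in shTPX2, where 6.24% of all genes were called higher. BIRC5 (survivin, of the passenger complex) measured 21.4, 41.1, 44.1 and 44.4 TPM in shNC 1, shNC 2, shTPX2 1 and shTPX2 2, and RAN, the GTPase that releases TPX2 from importins, 248, 212, 318 and 283 TPM. Both shTPX2 libraries exceeded both controls for each, yet the adjusted p by edgeR was 0.651 for BIRC5 and 0.603 for RAN. The limma voom call of BIRC5 was lost without shNC 1 (edgeR log2 fold change 0.27) and that of RAN without shNC 2 (0.37). For RCC1, the exchange factor of RAN, the log2 fold change was 0.24 (edgeR adjusted p = 0.759).

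Regulators of G2/M transcription, which include the factors that act on CHR elements and CCAAT boxes, mostly lacked the order of the kinesins. Of 16 tested, 1 (LIN52, of MuvB) had both shTPX2 libraries between the controls with shNC 2 highest. Among the 16, 9 were higher in shNC 2 than in shNC 1, beside 7063 of the 14048 tested genes. The median difference was 0.02 log2 CPM. By limma voom 3 were called higher in shTPX2, where 6.24% of all genes were. FOXM1 measured 52.9, 69.6, 81.4 and 76.1 TPM in shNC 1, shNC 2, shTPX2 1 and shTPX2 2, a log2 fold change of 0.49 (SE 0.19, edgeR adjusted p = 0.618). MYBL2, the subunit that joins MuvB at mitotic promoters, measured 127, 137, 232 and 183 TPM, with a log2 fold change of 0.78 (SE 0.20, edgeR unadjusted p = 0.00666, adjusted p = 0.578). TFDP1, partner of the E2F factors, was the third call, with a log2 fold change of 0.46 and values of 147, 122, 196 and 144 TPM. Without shNC 1 the limma voom call of FOXM1 was lost, with an edgeR log2 fold change of 0.32, and without shNC 2 that of TFDP1, at 0.31, while MYBL2 was called in both fits. Without shTPX2 1 the edgeR log2 fold change of TFDP1 was 0.21. On the CPM scale 5 of the 16 regulators (FOXM1, MYBL2, TFDP1, RBBP4 and E2F4) had both shTPX2 libraries above both controls and 2 (NFYB and RBL2) had them below, beside the 19.4% and 20.2% of all genes given above and 2 of 10 kinesins above.

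Other genes of the cell cycle were read beside the kinesins. A list of 46 G2/M genes without the members and TPX2 shared genes with the partners above, among them AURKB, BIRC5 and CDK1. Its counts are therefore not separate from those of the partners. All 46 were higher in shNC 2 than in shNC 1, by a median of 0.93 log2 CPM, beside 7063 of the 14048 tested genes. For 33 both shTPX2 libraries lay between the controls with shNC 2 highest, against 8.65% of all genes. The proliferation marker MKI67 measured 21.6, 43.4, 28.2 and 38.5 TPM, in the order shNC 1, shNC 2, shTPX2 1 and shTPX2 2. The median log2 fold change of these genes was -0.03. By limma voom 2 of the 46 were called higher, BIRC5 and TUBB4B, where 6.24% of all genes were. TUBB4B, a tubulin, measured 511, 718, 815 and 813 TPM in the same order. Without shNC 1 the edgeR log2 fold changes of BIRC5 and TUBB4B were 0.27 and 0.33, against 0.64 and 0.53 with all 4 libraries. The S phase genes took another profile, with a median log2 fold change of 0.60 over 43 genes. Of these, 42 were above 0, against 48.9% of all genes. By limma voom 26 were called higher, against 6.24% of all genes. None of the 43 had both shTPX2 libraries between the controls, where 8 of 10 kinesins and 17.2% of all genes did. MCM5, MCM2 and UHRF1 had the smallest p of that list by edgeR, with log2 fold changes of 1.03, 0.85 and 1.08 and adjusted p of 0.392, 0.454 and 0.470. DESeq2 called 4 of the 43 at an adjusted p under 0.05, against 0.79% of all genes and none of the 10 kinesins. These 4 were MCM5, MCM2 and UHRF1 (DESeq2 adjusted p of 7.30e-04, 0.0117 and 0.0234) and PCNA. As the list was known from earlier results to be higher in shTPX2, its counts are no independent evidence of that direction, and the difference between the lists was not tested.

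**Figure D5:**
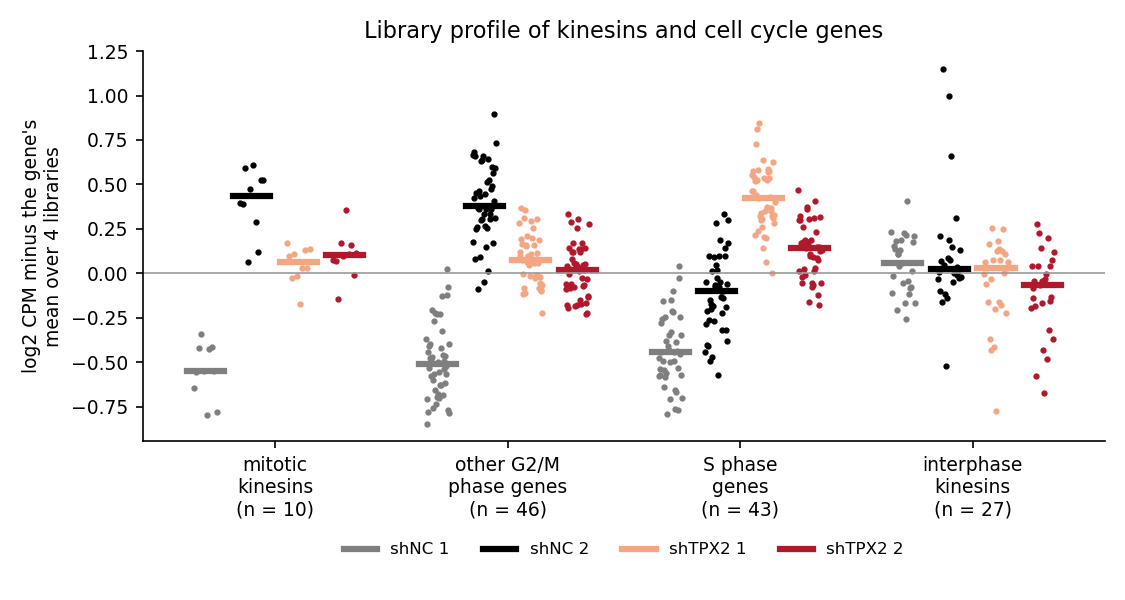
For each gene (1 point per library) the log2 CPM minus the mean of the gene over the 4 libraries, in the mitotic kinesins, other G2/M phase genes, S phase genes and interphase kinesins, with a bar at each median. The kinesin medians are -0.55, 0.43, 0.06 and 0.10 in shNC 1, shNC 2, shTPX2 1 and shTPX2 2, while the interphase kinesin medians stay between -0.07 and 0.06.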

How the data were processed

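RNA of PC9 shNC and shTPX2 cells (2 libraries each) was sequenced as poly(A) libraries. The authors deposited read counts per gene, called expected counts here, with no scaling for depth. Of these values 42.2% to 44.6% per library were not whole. The deposited TPM values, which the authors scaled per transcript length and per library, were used to report levels. The deposited FPKM values and the deposited group means entered no test. The study's methods name SOAPnuke, HISAT2/Bowtie2 and RSEM or StringTie, whereas the submitters' processing notes name HISAT2, featureCounts, DESeq2 and GRCh38, so the counter is uncertain. Annotation and strand setting are not given in the sources used here, and reads of overlapping or near-identical genes may have been shared between them.

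Expected counts were rounded to 0 decimals, filtered with filterByExpr (14048 of 18134 genes kept) and scaled by TMM factors, which ran from 0.9589 to 1.052. shTPX2 was tested against shNC by edgeR 4.0.16 (quasi-likelihood) in R 4.3.3, with Benjamini-Hochberg adjustment over all tested genes, and with limma 3.58.1 after voom at the criteria of the study's methods (an unadjusted p up to 0.1 and a log2 fold change of 0.3 or more either way). DESeq2 1.42.0 was an alternative, and the edgeR, limma voom and DESeq2 steps were tested on simulated data. With a common dispersion of 0.0485, precision was limited by variation between libraries rather than by depth. No 2 libraries matched within sampling noise (chi-square per gene 39.0 to 71.5). CPM values are TMM-scaled, and differences between libraries used log2(CPM + 0.5). SE and 95% intervals came from the edgeR fit.

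The members and lists were chosen with earlier results of these data known. Named genes were the members, TPX2, other spindle kinesins, 8 chosen partners and regulators, and the 3 genes with the smallest edgeR p in each list. The lists, written from general knowledge, were other spindle kinesins, interphase kinesins, partners and regulators, G2/M transcription regulators, G2/M phase genes and S phase genes, with marker lists for epithelial, lung adenocarcinoma, fibroblast, leukocyte and endothelial cells. Genes named as called by limma voom in a list lie partly outside that rule. KIF1BP was read under its listed symbol for KIFBP. Gene positions and promoters are from RefSeq (GRCh38.p14), and all 10 members matched. Motifs were searched as exact letters on both strands. Alternatives were other scaling, other filters, DESeq2, limma, a TPM ratio with a pseudocount of 0.5, the replicate number as a block, and leaving out each library.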

Additional observations from a re-analysis of the deposited data

How the results depend on the processing

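No kinesin reached an adjusted p under 0.05 under any alternative run. Leaving out each library in turn gave 0 to 22 genes at that threshold over the whole table (22 without shNC 1, 11 without shNC 2), and DESeq2 gave 111 where edgeR gave 0. The same fits gave 1100 to 3345 genes and 0 to 9 kinesins at the limma criteria, and a median log2 fold change of the kinesins from -0.36 to 0.58 against 0.09. For single genes these log2 fold changes ran from -0.27 to 0.77 for KIF2C, -0.31 to 0.64 for KIF4A, -0.69 to 0.33 for KIF14, -0.44 to 0.60 for KIF18B, -0.49 to 0.92 for KIF20A, -0.22 to 0.49 for KIF20B, -0.52 to 0.56 for KIF23 and -0.40 to 0.91 for KIFC1, all crossing 0, and from 0.08 to 0.49 for KIF18A and 0.02 to 0.56 for KIF22, which did not. They ran from -0.25 to 0.63 for KIF11, -0.10 to 0.48 for KIF15, -0.19 to 0.40 for CENPE, -0.37 to 0.63 for PRC1, -0.62 to 0.25 for RACGAP1, -0.60 to 0.78 for AURKB, -0.069 to 0.59 for PLK1, -0.25 to 0.69 for MKI67 and -1.22 to -0.25 for TPX2. The ratio of mean TPM turned the log2 fold change to -0.040 for KIF4A, -0.11 for KIF20A, -0.031 for KIF20B, -0.036 for KIFC1, -0.0014 for KIF11, -0.039 for CENPE and -0.10 for PRC1, and the median of the kinesins to -0.04. Scaling by library size alone moved the median of all genes to -0.08 and gave -0.037 for KIF20A and -0.037 for PRC1, without a low-count filter KIF18B was at 0.010, and limma voom gave 0.079 for KIF18B, 0.021 for KIF23 and 0.095 for AURKB. The causes of these changes were not tested. DESeq2 size factors and a minimum of 10 counts in every library kept the direction of all 10 kinesins.

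The groups share the replicate numbers 1 and 2, but nothing in the labels ties equal numbers to a shared batch, and the deviations of equally numbered libraries correlated at 0.194 across genes. With the replicate number as a block, edgeR called 0 genes at an adjusted p under 0.05 and 583 higher and 770 lower at an unadjusted p under 0.05, against 440 and 688 without it. Under the block the log2 fold change was 0.077 for KIF18B, 0.018 for KIF23 and 0.090 for AURKB, opposite in sign to the fit without it, -0.73 for TPX2, and 0.17 for the median of the kinesins, and 0 kinesins passed.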

Other observations

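The deposited table also carries the authors' mean TPM per group, which entered no test above. Multiplied by 3 for shNC and by 4 for shTPX2, these means came out whole in steps of 0.01 TPM for 100% of genes (tolerance 0.01 of a step), against 35.1% and 51.5% when multiplied by 2. They were thus taken over 3 and 4 libraries, of which those beyond the 2 per group were not analysed here. As the authors' means, KIF22 was at 94.3 TPM in shNC and 108 TPM in shTPX2, KIFC1 at 78.6 and 74.1 TPM, KIF20A at 59.0 and 64.6 TPM, and KIF14 at 8.99 and 8.36 TPM. For 8 of 10 mitotic kinesins the mean was higher in shTPX2 and for 2, KIF14 and KIFC1, lower. Ratios of shTPX2 to shNC ran from 0.93 to 1.26, and the share of all genes higher in these means was not counted. TPX2 was at 138 and 64.5 TPM in these means, or 34.1% and 14.8% of the kinesin sums of 406 and 436 TPM.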
